A study of Homo sapiens with 6 samples.

Results

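Antisense lncRNAs that cover the 3′ end of a protein-coding gene, but the 5′ end of none, were examined in K562 cells. Members were long noncoding genes of the GENCODE annotation that overlapped protein-coding genes on the other strand alone and whose counted transcript reached over a coding gene's end and over no coding gene's start. Genes with symbols ending in -DT and those of a short list of host and housekeeping RNAs were left out, which removed 69 genes with this geometry. In all, 683 of 37339 matched transcription units (TUs) met the rule, against 1271 antisense lncRNAs that span a coding start and 2560 that lie wholly inside coding genes. The data were 4 total RNA-seq libraries, made after rRNA depletion, and 2 PRO-seq libraries. All 6 came from K562, a chronic myelogenous leukemia line, grown without any specific treatment. According to the methods, the cells for both assays grew in the same flask, so that the spread between libraries holds no difference between cultures. There was 1 condition, and the comparison is between the assays.

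PRO-seq sequences the nascent RNA held by engaged RNA polymerases and so reads transcription on each strand, whereas total RNA-seq reads the RNA that has accumulated. At steady state, and where PRO-seq signal follows the rate of transcription, the ratio of RNA-seq to PRO-seq signal is proportional to the half-life of the RNA. It is a relative measure without units. The paper gives as a limit that PRO-seq reads the occupancy of polymerases, which depends on elongation rate as well. It judged the effect on its half-life estimates to be limited. The ratios here are not corrected for elongation rate. Antisense RNAs that run into the end of a coding gene are convergent, or tail-to-tail, transcripts: they start downstream of the gene and are read through its terminal exon in the opposite direction. Such RNAs can hold sequence complementary to the 3′ UTR of the mRNA, and their transcription crosses the region where the mRNA is cleaved and polyadenylated.

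Most of the 683 members had a single partner, the coding gene whose end they covered (666 members), while 16 covered the ends of 2 genes and 1 of 3. They were close to evenly placed on the strands (342 plus, 341 minus). Of the 683, 195 carried a symbol ending in -AS, with or without a number, and 445 had only an Ensembl identifier. The median member had a span of 16980 bp, an exon length of 770 bp and 3 exons, started 6681 bp beyond the partner's end and ran 6461 bp into it. Exons lay opposite exons of the partner, taken over all its annotated transcripts, in 494 members, and in 189 they did not. In 133 members the start lay within 1000 bp of a coding start on the other strand, and in 95 another coding TU on the same strand ended within 10 kb upstream.

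The sites at which a member could meet the end of its partner's mRNA show the arrangement in sequence. The reverse complement of the last 30 bases of the partner's counted transcript was found whole in the transcript of 103 of 666 members with a counted partner. In the 6 named members with such a site, shown 5′ to 3′ as the lncRNA reads, capitals mark the complement of a poly(A) signal of the partner (TTTATT or TTTAAT, complements of AATAAA and ATTAAA), and an entry without capitals has neither. All positions are on GRCh37 and the sequences are those of the GENCODE transcripts on that build.
ARRDC1-AS1: tctacaaataaagtgtTTTATTtacaggag
ENSG00000259972: ttaaaaatcaagccaTTTAATtgtatcttt
MRPL20-AS1: tgaagagtgtttgagtttcattcacacaaa
SH3BP5-AS1: ttttctttctttttcatttagatatcgtgg
ENSG00000244151: aggtgggggccaaagcactttactgcaggg
ENSG00000261071: tggaccccacggaaaatgctctgccggcga
The ARRDC1-AS1 site (chr9:140509783-140509812, minus strand) lay in exon 3 of 3, opposite the end of ARRDC1, and that of ENSG00000259972 (chr16:74340157-74340186, minus strand) in exon 2 of 3, opposite the end of PSMD7. The MRPL20-AS1 site (chr1:1337289-1337318, plus strand) lay in exon 3 of 3, opposite MRPL20, and the SH3BP5-AS1 site (chr3:15297157-15297186, plus strand) in exon 1 of 3, opposite SH3BP5. The sites of ENSG00000244151 (chr7:150773584-150773613, minus strand) and ENSG00000261071 (chr6:13615361-13615390, minus strand) lay in exon 1, close to the lncRNA start, opposite the ends of SLC4A2 and SIRT5. The 20 members with a site and a ratio estimate had a median log2 ratio to the median mRNA of -3.64, and the 78 searched without a site one of -2.39, a difference that was not tested.

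The members' own annotated ends are shown for a few of those with the most RNA and those with the lowest ratio, with a poly(A) signal in capitals. These ends were picked as examples, and a signal is more frequent among them than over all members. The motifs AATAAA and ATTAAA were searched on the transcript strand in the last 40 bases.
PROSER2-AS1: aggcttgagAATAAAagtttcagccaatca
SH3BP5-AS1: gagagaAATAAAatatttgacacgagaaaa
ARRDC1-AS1: aAATAAAgtgttttatttacaggagttgtc
B3GALT1-AS1: tgaccctgcagggagctctggggctgggat
PCGF3-AS1: cggaccacagccggggagcctgccctggct
These last 30 bases ended the final exon of PROSER2-AS1 (chr10:11891607-11891636, minus strand), SH3BP5-AS1 (chr3:15305971-15306000, plus strand), ARRDC1-AS1 (chr9:140509778-140509807, minus strand), B3GALT1-AS1 (chr2:168671563-168671592, minus strand) and PCGF3-AS1 (chr4:756175-756204, minus strand). In ARRDC1-AS1 the AATAAA of the lncRNA and the TTTATT of the overlapping coding end share the final 35 bases in which the genes overlap. Over all members, 36.5% held either hexamer, against 38.9% of antisense lncRNAs spanning a start, 41.0% of those inside coding genes, 69.0% of mRNAs and 52.0% of all matched TUs. The 42 members with a hexamer among the 100 with a ratio estimate had a median log2 ratio of -2.69, and the 58 without had one of -2.49. A missing hexamer says only that these letters are not in this window of the annotated transcript.

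Counts on TUs ranged from 5732780 to 9002746 in the RNA-seq libraries and were 6993816 and 7245632 in the PRO-seq libraries. RNA-seq libraries 1 and 3, and 2 and 4, were closer to each other (chi-square per degree of freedom 1.12 for each pair) than the other pairs (1.74 to 2.11), but differed by more than sampling noise. All 12 erythroid marker genes on the list, such as GATA1 and HBG1, were above 1 TPM in RNA-seq (10.8 to 6290 TPM). Of 9 markers of other cell types, 6 were matched, of which EPCAM had 120 TPM and the others at most 1.17 TPM. The counts carried strand: of 5070 TUs whose whole PRO-seq window lay opposite other counted TUs, 2835 had PRO-seq counts, whereas of 2597 that lay wholly under TUs of the same strand, 2536 had none. In RNA-seq, 100 of 165 TUs with every exon base opposite other exons had counts, and 310 of 334 with every exon base under same-strand exons had none. A TU under another of its own strand is therefore not measured. This held for the whole PRO-seq window of 15 members, which all had 0 PRO-seq counts, and for a part of it in 59 more.

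More members had counts in PRO-seq than in RNA-seq. At least 1 PRO-seq count, summed over libraries, was present for 582 members (85.2%), and at least 1 RNA-seq count for 418 (61.2%). Both assays had counts for 376 members, PRO-seq alone for 206, RNA-seq alone for 42, and neither for 59. PRO-seq was counted over the span (median 16980 bp) and RNA-seq over exons (median 770 bp). Whether this unlike length accounts for the gap was not tested. For mRNAs the shares were 88.1% in PRO-seq and 85.0% in RNA-seq, and for all matched TUs with a PRO-seq window 73.2% and 68.1%. Antisense lncRNAs spanning a start had 86.4% and 64.3%, and those inside coding genes 60.2% and 42.8%. In each PRO-seq library 525 or 552 members had a count, and in each RNA-seq library 258 to 292. Counts were low: among the 376 members with both, the median was 6 summed RNA-seq counts and 35 summed PRO-seq counts. A member without a count may be present below this depth.

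As a group the members took 685 to 715 CPM (counts scaled to a common library total) in RNA-seq and 6989 and 6994 CPM in PRO-seq. The values within each assay lay close together and those of the assays did not overlap. CPM takes no account of length, and the median member has 770 bp of exon but a span of 16980 bp. The gap between the assays therefore does not measure how much RNA is kept. The 10 members with the most counts held 48.8% of the members' RNA-seq counts and 39.5% of their PRO-seq counts. The single B3GALT1-AS1 held 16.8% and 17.8% of the members' PRO-seq counts in the 2 libraries. Without it, the members took 609 to 635 CPM in RNA-seq and 5748 and 5821 CPM in PRO-seq.

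Across the 376 members with counts in both assays, PRO-seq and RNA-seq TPM rose together, with a Spearman rank correlation of 0.738. The 8 combinations of a single RNA-seq and a single PRO-seq library gave 0.588 to 0.653, over the members with counts in each. Over the 136 members with at least 10 counts in each assay, it was 0.418. The points share libraries, depth and annotation, so these values are descriptions.

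**Figure D1:**
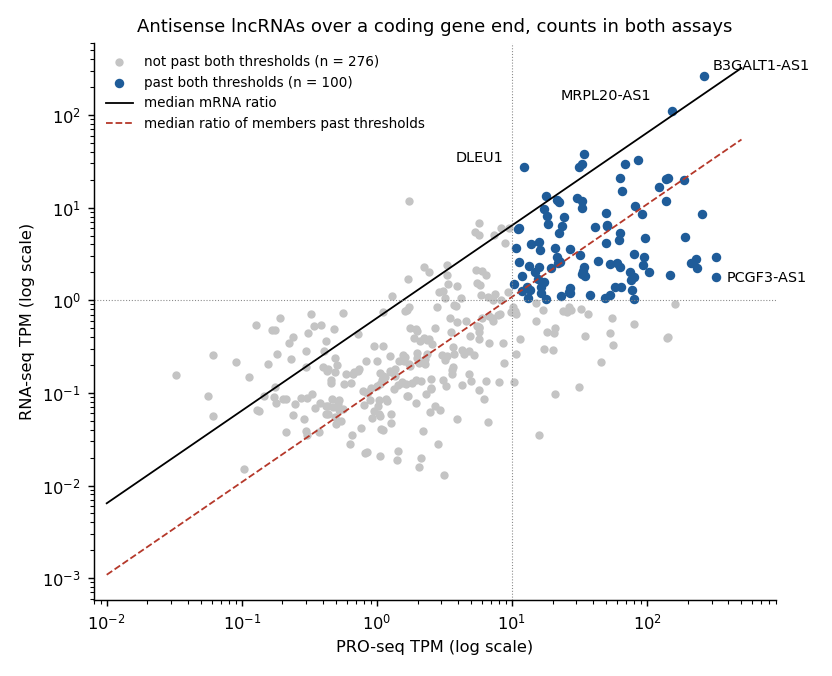
RNA-seq TPM (vertical) against PRO-seq TPM (horizontal), both on log scales, for the 376 members with counts in both assays. Blue points are the 100 members past both thresholds, 10 PRO-seq TPM and 1 RNA-seq TPM (dotted lines), gray points the other 276, the black line the median mRNA ratio and the dashed line the median ratio of the 100 members. Most blue points lie below the black line, with B3GALT1-AS1, MRPL20-AS1 and DLEU1 above it and PCGF3-AS1 far below.

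The relative half-life was estimated where a TU exceeded 10 PRO-seq TPM and 1 RNA-seq TPM, the thresholds of the study's methods. PRO-seq placed 136 members above 10 TPM, of which 100 also passed 1 TPM in RNA-seq (73.5%). For mRNAs this share was 95.4%, for antisense lncRNAs spanning a start 61.6% and for those inside coding genes 39.5%. Each TU was tested with edgeR's quasi-likelihood test for a difference between its RNA-seq to PRO-seq ratio and that of the median mRNA, with Benjamini-Hochberg adjustment over the 10053 TUs tested. At an adjusted p under 0.05, 89 of the 100 members lay below the median mRNA and 4 above it, and 7 were not called. Of all TUs tested, 50.4% were called below and 40% above. The thresholds favor TUs with RNA, so the 36 members above 10 TPM in PRO-seq that had no more than 1 TPM in RNA-seq have no estimate here. With the filter set instead at 1 summed count in each assay, 186 of 376 members were called below and 23 above, where 37.3% and 31.6% of all 21100 TUs were called. The median mRNA of that setting was taken over 14965 mRNAs in place of 8733. Against it, the 20 members named below that have an estimate lay 0.66 higher in the median. The median SE of the 376 members was 0.74, and that of the 100 was 0.20.

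The median log2 ratio of the 100 members was -2.53 relative to the median mRNA, with quartiles of -3.80 and -1.38. It was -2.86 for 189 antisense lncRNAs spanning a start, -3.56 for 111 inside coding genes and -2.43 for 499 lincRNAs. These medians are set side by side and their differences were not tested. For the members, single-library combinations gave medians from -2.68 to -2.46. Among the 94 members with counts in all 6 libraries, the median replicate SD of the log2 ratio was 0.417, of which RNA-seq carried 0.371 and PRO-seq 0.104. The SD across the 100 members was 1.79. Members thus differed among themselves by more than the replicate spread: 9 lay below -5, 14 between -5 and -4, 16 between -4 and -3, 29 between -3 and -2, 11 between -2 and -1, 14 between -1 and 0, and 7 above 0.

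**Figure D2:**
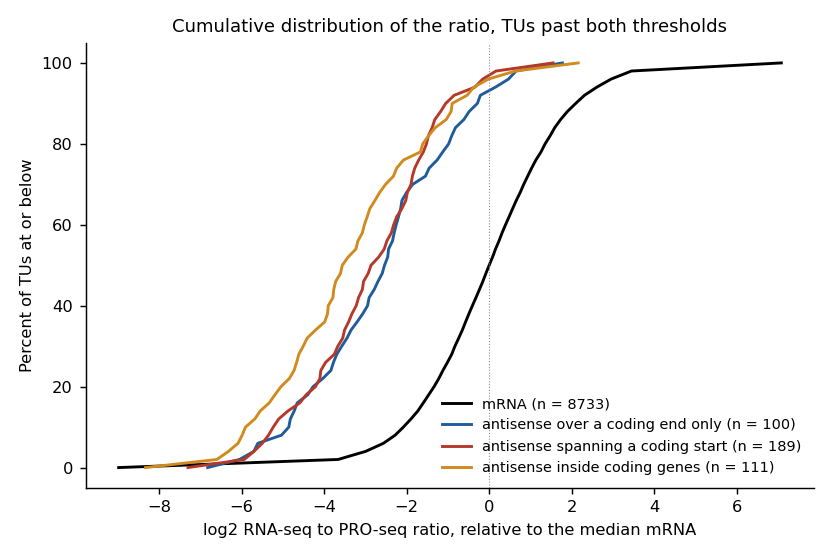
Cumulative percent of TUs (vertical) at or below each log2 RNA-seq to PRO-seq ratio relative to the median mRNA (horizontal), for TUs past both thresholds: 8733 mRNAs, 100 antisense lncRNAs over a coding end only, 189 spanning a coding start and 111 inside coding genes. The 3 antisense curves lie to the left of the mRNA curve, and that of the members passes its median at -2.53.

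The members with the most RNA were few, and some had a ratio above that of the median mRNA. The highest was B3GALT1-AS1 (chr2:168671563-168797654, minus strand, 5 exons), which runs through the end of B3GALT1, a galactosyltransferase gene. It had 649, 739, 435 and 500 counts in RNA-seq libraries 1 to 4 and 8682 and 8495 in the PRO-seq libraries, or 266 and 263 TPM. Its log2 ratio was 0.65 with an SE of 0.04 (edgeR adjusted p = 2.2e-14). B3GALT1 itself had 1, 1, 0 and 2 RNA-seq counts and 0 in both PRO-seq libraries, although 45.5% of its PRO-seq window lay under same-strand TUs and was not measured.

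DLEU1 (chr13:50656307-51102670, plus strand), a lncRNA of a region often deleted in chronic lymphocytic leukemia, had the highest ratio. Its 149, 155, 107 and 128 RNA-seq counts gave 27.2 TPM, and its 1454 and 1425 PRO-seq counts, spread over 445364 bp, gave 12.4 TPM, close to the threshold. The log2 ratio was 1.78 with an SE of 0.08 (edgeR adjusted p = 1e-18), and it was the 1 member called above when the test was set against a 2-fold difference. Its partner DLEU7 had 0 counts in every RNA-seq library and 37 and 44 in PRO-seq.

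The other members called above the median mRNA were PXN-AS1 and CCDC18-AS1. PXN-AS1 (chr12:120639145-120650941, plus strand) covers the end of PXN, which encodes the focal adhesion protein paxillin. It had 146, 146, 91 and 99 RNA-seq counts and 87 and 99 PRO-seq counts, with a log2 ratio of 0.48 and an SE of 0.13 (edgeR adjusted p = 0.00097). Its RNA-seq level was 161.6% of that of PXN in TPM, while its PRO-seq level was 60.5%, and PXN lay below the median mRNA, with a log2 ratio of -0.94. CCDC18-AS1 (chr1:93727743-93811388, minus strand) had 69, 84, 55 and 82 RNA-seq counts and 657 and 689 PRO-seq counts, with a log2 ratio of 0.47 and an SE of 0.11 (edgeR adjusted p = 0.00024). Its partner CCDC18, a coiled-coil protein gene, lay above the median mRNA at 0.75. In all 4 members called above, the ratio was on the same side in replicates 1 of both assays and in replicates 2.

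MRPL20-AS1 (chr1:1334895-1337426, plus strand) had the second highest RNA level of the members with at least 10 counts in each assay. It covers the end of MRPL20, which encodes a protein of the large mitochondrial ribosomal subunit. Its RNA-seq counts were 739, 822, 465 and 597 (110 TPM) and its PRO-seq counts 52 and 71 (154 TPM), from a window of 1532 bp. Its log2 ratio of 0.15, with an SE of 0.14, was not called (edgeR adjusted p = 0.31). The call depended on the length taken for PRO-seq: with 500 bp instead of 1000 bp removed, the log2 ratio was 0.50 (edgeR adjusted p = 0.00088). The sign also rested on single PRO-seq libraries, at -0.03 without the first and 0.36 without the second.

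The remaining members of the 10 with the highest RNA-seq TPM had 20.4 to 32.9 TPM and lay below the median mRNA. ARRDC1-AS1 (chr9:140509778-140513330, minus strand) meets ARRDC1, an arrestin domain gene, over 35 bp. It had 175, 192, 144 and 152 RNA-seq counts and 62 and 52 PRO-seq counts, and a log2 ratio of -0.73 with an SE of 0.16 (edgeR adjusted p = 0.00013). The PRO-seq level of ARRDC1 was not measured, since 99.3% of its window lay under same-strand TUs. ENSG00000290928 (chr17:29036317-29097052, plus strand), over the end of the cytokine receptor-like gene CRLF3, had a log2 ratio of -0.57 from 84, 111, 83 and 93 RNA-seq counts and 1048 and 1076 PRO-seq counts. GTF3C2-AS2 (chr2:27580055-27590489, plus strand), over the end of the translation initiation factor gene EIF2B4, had one of -0.98 from 18, 41, 20 and 33 RNA-seq counts and 150 and 162 PRO-seq counts. Neither was called against a 2-fold difference.

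PROSER2-AS1 and RRP7BP had more transcription than these and lay lower. PROSER2-AS1 (chr10:11891607-11936699, minus strand) had 279, 253, 169 and 170 RNA-seq counts and 1554 and 1651 PRO-seq counts, with a log2 ratio of -2.14 and an SE of 0.07 (edgeR adjusted p = 3.2e-23). It exceeded its partner PROSER2 in both assays, at 957% of the partner's PRO-seq TPM and 502.4% of its RNA-seq TPM. RRP7BP (chr22:42951218-42978045, minus strand), over the end of the serine hydrolase-like gene SERHL2, had a log2 ratio of -2.15 from 185, 224, 108 and 158 RNA-seq counts and 923 and 1010 PRO-seq counts. RRP7BP carries the symbol of a pseudogene, and reads of a close copy may have been split or lost in counting, so its level is uncertain.

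The lowest ratios belonged to members with strong PRO-seq signal and little RNA. An estimate required more than 1 RNA-seq TPM, so values this low could arise only at high PRO-seq TPM. PCGF3-AS1 (chr4:756175-775637, minus strand) runs 7703 bp into PCGF3, a gene of a Polycomb group ring finger protein. Its PRO-seq counts were 1544 and 1560 (322 TPM), while RNA-seq gave 5, 5, 1 and 2 counts (1.80 TPM), and the log2 ratio was -6.82 with an SE of 0.15 (edgeR adjusted p = 1.4e-26), or 113-fold below the median mRNA. It was transcribed at 800% of the PRO-seq TPM of PCGF3, but held 6.48% of its RNA-seq TPM. PCGF3 lay at 0.11 and was not called.

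ENSG00000244151 (chr7:150771829-150773617, minus strand) starts 4 bp beyond the end of SLC4A2, an anion exchanger gene, and 99 bp after the end of FASTK upstream. It had 63 and 70 PRO-seq counts in a window of 789 bp (323 TPM) and 8, 16, 11 and 14 RNA-seq counts, with a log2 ratio of -6.12 and an SE of 0.25 (edgeR adjusted p = 4.6e-20). With 500 bp removed for PRO-seq it was -5.47. SLC4A2 lay above the median mRNA at 1.19. ENSG00000261071 (chr6:13614333-13615422, minus strand), a single exon over the end of SIRT5, a mitochondrial deacylase gene, had a log2 ratio of -6.05 with an SE of 0.78. This value rests on 6 and 5 PRO-seq counts in a window of 90 bp, beside 6, 15, 5 and 7 RNA-seq counts, and where the PRO-seq length was the span less 500 bp it was -3.39 (edgeR adjusted p = 2.3e-05).

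SH3BP5-AS1 (chr3:15295691-15306000, plus strand) lies for all but 169 bp of its span inside SH3BP5, and 2475 bp of its 5570 bp of exon lie opposite exons of that gene. It had 52, 75, 35 and 47 RNA-seq counts and 563 and 559 PRO-seq counts, and a log2 ratio of -5.75 with an SE of 0.10 (edgeR adjusted p = 9.8e-30). ENSG00000248774 (chr4:174243357-174250845, minus strand), over the end of the glycosyltransferase gene GALNT7, had 7, 5, 1 and 5 RNA-seq counts and 345 and 367 PRO-seq counts, with a log2 ratio of -5.70. ENSG00000285696 (chr11:108013185-108021108, minus strand), over the end of the mitochondrial acetyl-CoA acetyltransferase gene ACAT1, had 8, 5, 3 and 3 RNA-seq counts and 266 and 268 PRO-seq counts, with a log2 ratio of -5.63. GALNT7 lay at 1.11 and ACAT1 at 3.05, both called above the median mRNA. In each of these 6 members the PRO-seq libraries lay close together. For ENSG00000261071, with 6 and 5 PRO-seq counts and an SE of 0.78, this does not show precision. RNA-seq had at most 16 counts per library in 5 of the 6 members. SH3BP5-AS1, which has the greatest exon length of the 6, had 35 to 75.

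Of the other members with the highest PRO-seq TPM, BCAN-AS2 (chr1:156616299-156631216, minus strand), over the end of the brain proteoglycan gene BCAN, had 895 and 959 PRO-seq counts and 20, 34, 11 and 24 RNA-seq counts, and a log2 ratio of -4.24. BCAN itself had 1 count in each PRO-seq library. ENSG00000259972 (chr16:74339154-74366511, minus strand) had 1254 and 1359 PRO-seq counts and 12, 10, 6 and 7 RNA-seq counts, with a log2 ratio of -4.67. Its partner PSMD7, a proteasome subunit gene, had a similar PRO-seq TPM (172, against 190 for the lncRNA), an RNA-seq TPM of 412 against 4.77, and a log2 ratio of 1.90. NSUN5P2 (chr7:72418120-72425245, minus strand), over the end of the nuclear pore gene POM121, had a log2 ratio of -2.61, and as a named pseudogene its counts are uncertain.

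**Figure D3:**
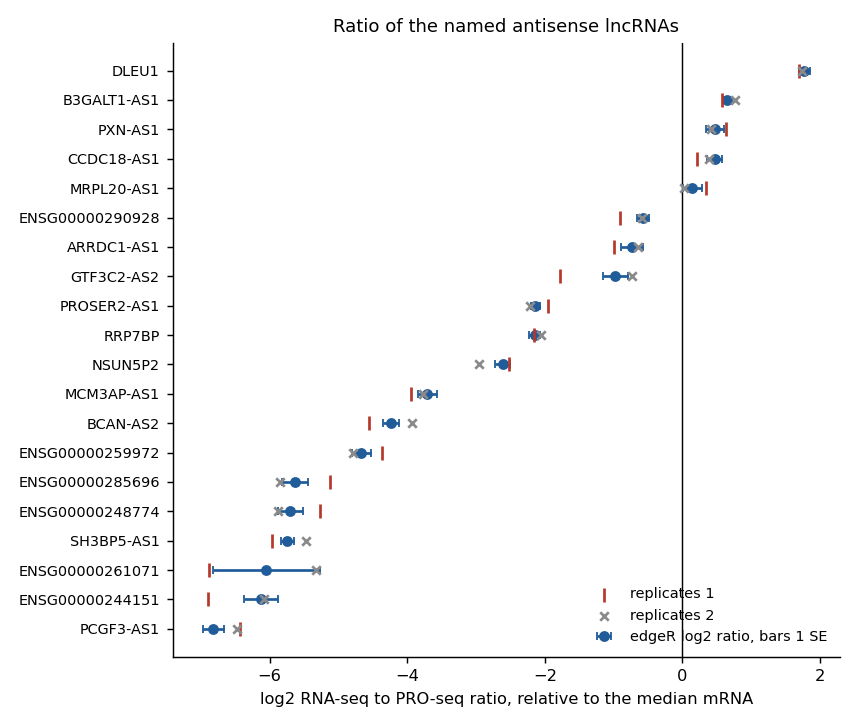
The log2 RNA-seq to PRO-seq ratio relative to the median mRNA (horizontal) for the 20 named members past both thresholds (vertical). Circles are edgeR estimates with bars of 1 SE over all 6 libraries, vertical ticks the ratio from replicates 1 of both assays and crosses that from replicates 2. DLEU1 is highest at 1.78 and PCGF3-AS1 lowest at -6.82, and the widest bar is that of ENSG00000261071, whose SE is 0.78.

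The median ratio was lower in members that follow closely behind another coding gene, a difference described here and not tested. Among the 25 members past both thresholds whose nearest same-strand coding TU ended within 10 kb upstream, the median log2 ratio was -4.36, with 24 called below the median mRNA and 0 above by edgeR. TTN-AS1, the 1 that was not called and is named for that reason after its value was seen, lay above 0 at 0.21 (edgeR adjusted p = 0.13). For the 75 others the median was -2.26, with 65 called below and 4 above. By distance, the median was -4.76 for 14 members within 5 kb, -3.65 for 11 between 5 and 10 kb, -2.34 for 25 between 10 and 50 kb, -2.56 for 27 between 50 and 200 kb and -2.11 for 22 beyond. All 6 members with the lowest ratios fell within 10 kb: their upstream genes were CPLX1 at 3108 bp, FASTK at 99 bp, RANBP9 at 6308 bp, CAPN7 at 1268 bp, HMGB2 at 1682 bp and NPAT at 6834 bp. The distances were examined after the ratios had been seen.

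PRO-seq signal of the members moved with the same distance. Of 95 members within 10 kb, 36.8% were above 10 TPM in PRO-seq, against 17.2% of the 588 others. The pattern was not particular to the members. The shares were 45.7% and 22.2% in antisense lncRNAs spanning a start, 50.5% and 7.66% in those inside coding genes, and 55.8% and 46.6% in mRNAs. Where the upstream gene was itself above 10 TPM, 30 of 47 members were, and where it was not, 5 of 48. In the 25 with a ratio estimate, the member's PRO-seq TPM had a median of 130% of the upstream gene's, and the upstream gene was the higher in 11. The HMGB2 gene, for example, had 822 PRO-seq TPM and ENSG00000248774 behind it 210, whereas CPLX1 had 4.72 and PCGF3-AS1 behind it 322. RNA-seq levels were 2.27 TPM in the median for the 25 and 3.63 for the 75. Whether polymerases of the upstream gene contribute to the members' PRO-seq counts was not tested. The same split gave medians of -3.55 and -2.68 in antisense lncRNAs spanning a start, -4.73 and -2.80 in those inside coding genes, and -0.28 and 0.06 in mRNAs. The median behind a coding gene was thus the lower one in each class.

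**Figure D4:**
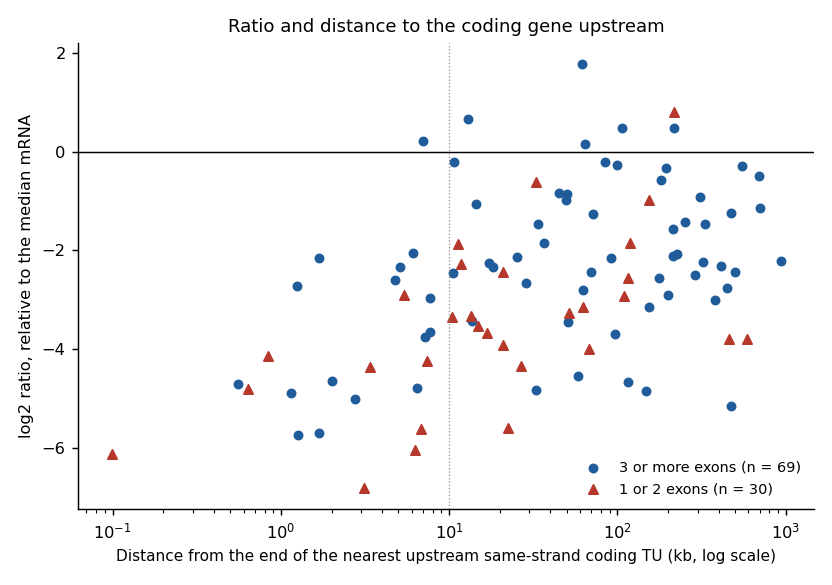
The log2 RNA-seq to PRO-seq ratio relative to the median mRNA (vertical) against the distance from the end of the nearest upstream coding TU on the same strand (horizontal, kb, log scale) for 99 members past both thresholds. Circles are 69 members with 3 or more exons, triangles 30 with 1 or 2, and the dotted line stands at 10 kb. To its left, 24 of 25 members lie below 0.

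By number of exons, single-exon and 2-exon members had the lower medians, which were not tested against the rest. The 6 single-exon members had a median of -3.31, the 24 with 2 exons -3.74, the 23 with 3 exons -2.91 and the 47 with 4 or more -2.13. The 4 members called above the median mRNA all had 5 or more exons. Within each range of upstream distance, members with 3 or more exons had the higher median: -3.71 for 16 against -4.82 for 9 within 10 kb, and -2.11 for 54 against -3.27 for 21 farther away. Across the 100 members, the rank correlation of the ratio was 0.429 with the number of exons, 0.375 with the span and -0.0173 with the exon length. These are descriptions over members that share libraries, and span also sets the PRO-seq length by which the ratio is formed. The 8 members with under 1000 bp left for PRO-seq had a median of -3.61, and the 92 others one of -2.46.

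A start close to a coding start on the other strand, as at a divergent promoter, was more frequent among the transcribed members, while the median ratios lay close together. Of 133 members that started within 1000 bp of such a start, 39.1% were above 10 TPM in PRO-seq, against 15.3% of the other 550. The median log2 ratio was -2.47 for 39 of the former and -2.61 for 61 of the latter. The named members of this kind were PXN-AS1, MRPL20-AS1, CCDC18-AS1, ARRDC1-AS1, GTF3C2-AS2, MCM3AP-AS1, BDNF-AS and ENSG00000261071, with RPLP0 starting 107 bp from PXN-AS1 and DR1 starting 76 bp from CCDC18-AS1.

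Members with exons opposite exons of the partner hold sequence complementary to an annotated transcript of that gene, which need not be its main mRNA. The 79 such members past both thresholds had a median log2 ratio of -2.57, with 71 called below and 2 above, and the 21 without had -2.44, with 18 called below and 2 above. The difference between the medians of log2 RNA-seq TPM over PRO-seq TPM was -0.175. The library combinations gave -0.661 to -0.0535, all negative, with an SD of 0.203, and the difference was no larger than that SD. The combinations share libraries, so their SD covers the libraries alone and not the spread among the 79 and 21 members. The difference was not stable to the filter. Over the 136 members with at least 10 counts in each assay it was -1.38, without the members within 10 kb of an upstream coding end -1.16, and with 500 bp removed for PRO-seq 0.0938.

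The partner coding genes lay on either side of the median mRNA. Of 695 partner genes, 677 had a counted transcript and 301 passed both thresholds, of which edgeR called 140 above (46.5%) and 143 below (47.5%) the median mRNA. Of all mRNAs tested, 45.4% and 44.9% were called. Their median log2 ratio was 0.03. In the 64 pairs in which lncRNA and partner, taken as the one with the longest overlap, both had an estimate, the lncRNA had the lower ratio in 56 and the higher in 8. The medians of these pairs were -2.86 for the lncRNAs and 0.01 for the partners. Of the 98 members past both thresholds with a counted partner, 56 exceeded the partner in PRO-seq TPM and 39 in RNA-seq TPM. The median member had 184% of its partner's PRO-seq TPM and 36.6% of its RNA-seq TPM. These members had to pass both thresholds and their partners did not, which favors the members in this comparison. Of all 666 members with a counted partner, 133 were above 10 TPM in PRO-seq themselves and 308 had a partner above it. Some partners, such as MED26 with 0 PRO-seq counts, had a window wholly under same-strand TUs and were not measured.

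**Figure D5:**
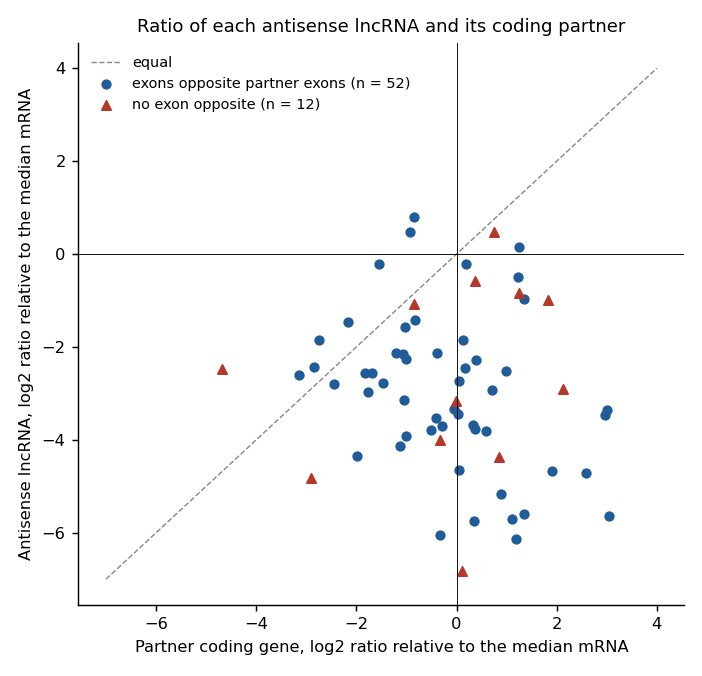
The log2 RNA-seq to PRO-seq ratio of each antisense lncRNA (vertical) against that of its coding partner (horizontal), both relative to the median mRNA, for the 64 pairs with both estimates. Circles are 52 pairs with lncRNA exons opposite partner exons, triangles 12 without, and the dashed line marks equal ratios. Below the dashed line lie 56 pairs.

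Members above the PRO-seq threshold were more frequent beside partners above it. Where the partner was above 10 TPM in PRO-seq, 86 of 308 members were too (27.9%), and where it was not, 47 of 358 (13.1%). Across 324 pairs with counts in every measure, the Spearman rank correlation between lncRNA and partner was 0.27 for PRO-seq TPM and 0.175 for RNA-seq TPM. In 7 of the 98 members past both thresholds with a counted partner, the lncRNA had under 1% of the partner's RNA-seq TPM. All 7 had exons opposite exons of the partner, but so did most members past both thresholds (79 with, 21 without). Whether the 7 differ from the other members in this was not tested. Such a share also depends on the partner's own RNA level. The extreme of the 7, picked after its values were seen, was ENSG00000271980, with 93 RNA-seq counts, opposite the chaperonin gene CCT5 with 57915. Its RNA-seq TPM was 0.207% of that of CCT5, and its log2 ratio was -3.36.

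Among the widely studied antisense RNAs on the list, 3 were members. MCM3AP-AS1 (chr21:47649131-47679304, plus strand), opposite the end of the mRNA export factor gene MCM3AP, had 11, 13, 10 and 11 RNA-seq counts and 726 and 739 PRO-seq counts, with a log2 ratio of -3.71 and an SE of 0.14 (edgeR adjusted p = 1.1e-20). It had 66.7% of the PRO-seq TPM of MCM3AP and 6.25% of its RNA-seq TPM. HIF1A-AS3 (chr14:62182276-62217881, minus strand), opposite the gene of the hypoxia factor subunit HIF1A, had 6, 4, 3 and 4 RNA-seq counts and 61 and 48 PRO-seq counts, and at 6.03 TPM in PRO-seq did not pass the threshold. BDNF-AS (chr11:27528394-27719778, plus strand), opposite the neurotrophin gene BDNF, had 1, 0, 1 and 0 RNA-seq counts and 121 and 128 PRO-seq counts (2.50 TPM). BDNF had 3 RNA-seq counts and 19 PRO-seq counts in all, so the antisense strand was the more transcribed of this pair, at 455.5% of the PRO-seq TPM of BDNF, of whose window 37.4% lay under same-strand TUs.

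PRO-seq signal without detected RNA was seen in 4 members above 10 TPM in PRO-seq, which were picked by their values. NOP53-AS1 had 48 and 70 PRO-seq counts (20.9 TPM), ENSG00000228008 had 39 and 32 (11.4 TPM), ENSG00000268112 had 14 and 17 (10.5 TPM) and ENSG00000223754 had 5 and 4 (20 TPM). All had 0 RNA-seq counts in every library. The value of ENSG00000223754 came from a window of 860 bp. That member starts 1166 bp behind the end of ITSN2 on the same strand, which had 26.6 PRO-seq TPM. Whether polymerases of ITSN2 contribute to its counts was not tested. Given that a count of 0 over the 4 libraries allows up to 3 counts, their RNA-seq level was up to 0.408, 0.368, 1.02 and 0.406 TPM in that order, a limit that covers counting error alone.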

How the data were processed

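The authors deposited raw HTSeq counts per transcript for each library, without normalization. Their methods name Cutadapt for trimming, HISAT2 for alignment to GRCh38 and GENCODE TUs for counting. For PRO-seq the first and last 500 bp were excluded (the label does not say at both ends). The labels speak of the longest transcript and the methods of the most abundant. The sources used here give no tool versions and no HTSeq strand option. All libraries came from 1 flask, so p-values measure only the spread between libraries. The sources used here name no molecular identifiers, and counts are taken as reads, which need not be independent molecules. Of 42371 transcripts listed, 37339 were matched by identifier to GENCODE on GRCh37, which gave lengths and positions. Exon length was the same on GRCh38, as that annotation records it, for 681 of 683 members. Rows naming no TU held 66.5% to 68.6% of RNA-seq records and 86.5% to 88.6% of PRO-seq records and were left out.

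TPM was computed from counts summed over replicates, with exon length for RNA-seq and span minus 1000 bp for PRO-seq. Ratios were fitted with edgeR (version 4.0.16, R version 4.3.3) using TMM and length offsets, and DESeq2 (version 1.42.0) was an alternative. On simulated counts for this comparison, edgeR recovered 91.5% of 200 TUs that had been given a log2 change of 1 among 10053, and made 9 false calls. The simulated libraries were independent and all other TUs held no difference. In the data 50.4% of TUs were called below and 40% above, so the false calls describe the simulation only. Python 3.11.15 was used for the rest. The members and gene lists were chosen with earlier results of these data known. Members named are the 10 with the highest RNA-seq and the 10 with the highest PRO-seq TPM among those with at least 10 counts in each assay, up to 6 with the highest and 6 with the lowest ratios among those called, with replicates 1 and replicates 2 in the same direction, and those on a list of 12 well known antisense RNAs. Alternatives covered normalization, count model, filters, thresholds, lengths, pairing and each library left out.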

Additional observations from a re-analysis of the deposited data

Results flagged for a closer look

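Of 23 sets of 4 RNA-seq values examined (the members' summed CPM and those of the 22 named members), 1 held a library that stood apart by Dixon's test at the 95% level, which flags about 1 in 20 groups by chance. B3GALT1-AS1 had 82.1 CPM in RNA-seq library 2 and 76.4, 75.9 and 75.7 in libraries 1, 3 and 4, a gap of 0.893 of the range. The range itself is narrow beside the level.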

How the results depend on the processing

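Alternatives added after seeing the data were the close RNA-seq pairs summed and members within 10 kb of an upstream coding end left out. Of the 100 members tested, 89 were called below and 4 above the median mRNA. Library totals gave 89 and 4, DESeq2 87 and 4, the close pairs summed 88 and 4, 500 bp removed 89 and 6 of 102, and 10 summed counts 106 and 6 of 136. A filter of 1 summed count gave 186 below and 23 above of 376, thresholds of 20 and 2 TPM 49 below of 56, and a 2-fold difference 1 above. Without each library in turn, 85 to 88 were below and 4 to 5 above. For the partners, a filter of 1 summed count gave 225 above, and a 2-fold difference 69 above and 65 below, and leaving out a library gave 133 to 139 above and 135 to 142 below. Fitted with a replicate block over the libraries numbered 1 and 2, 87 members were below and 4 above, and 138 partners below and 137 above. The numbers share no more than a label: over 9962 TUs the deviations of RNA-seq and PRO-seq libraries of the same number had a correlation of -0.00673.

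With at least 10 counts, 148 members were detected in RNA-seq, 358 in PRO-seq and 136 in both, and leaving out a library gave 385 to 418, 525 to 582 and 348 to 358. The median log2 ratio of TPM, -2.56 relative to mRNAs, was -2.44 with 500 bp removed, -2.22 with 10 counts, -1.78 with 1 count, -2.43 at 20 and 2 TPM, -2.18 with a pseudocount of 1 TPM, -2.26 without members near an upstream coding end, and -2.67 to -2.42 without each library. The difference by exon overlap, -0.175, was 0.0938 with 500 bp removed, -1.38 with 10 counts, -0.458 with 1 count, -1.16 without members near an upstream coding end, and -0.476 to -0.149 without each library. The rank correlation of PRO-seq with RNA-seq TPM, 0.738, was 0.418 with 10 counts and 0.716 to 0.741 without each library. Among the named members, MRPL20-AS1, at 0.15, turned to -0.0318 (edgeR adjusted p = 0.88) without PRO-seq replicate 1, was 0.358 without replicate 2, and was called at 0.50 with 500 bp removed and 0.81 with a filter of 1 count. ENSG00000290928 turned to 0.0876 (edgeR adjusted p = 0.41) with that filter, under which ARRDC1-AS1 and GTF3C2-AS2 lost their calls. Against a 2-fold difference, these 3, B3GALT1-AS1, CCDC18-AS1 and PXN-AS1 lost theirs. With 500 bp removed, ENSG00000261071 moved from -6.05 to -3.39 and ENSG00000244151 from -6.12 to -5.47. The filter of 1 count moved all 20 named members with an estimate by nearly the same amount, 0.66 in the median (0.65 to 0.66). In each setting the median mRNA was taken anew over the mRNAs kept, 14965 with this filter and 8733 in the main fit. The shift common to the named members is thus one of the reference line. No value was had at 20 and 2 TPM for DLEU1, ENSG00000285696 and PCGF3-AS1. The causes of the other changes were not tested. Depth limits ENSG00000261071 the most, with an SE of 0.78 from 11 PRO-seq counts.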
